A study of Mus musculus with 9 samples.

Results

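The mouse miRNAs numbered miR-5097 to miR-5136 were taken as a group by their names. A probe belonged to it when its name in the scanner output was that of a mouse miRNA whose stem number falls in that range. This gave 40 probes, 1 for each number, among the 1135 miRNA probes of the array, of which 1096 were for mouse miRNAs. The names alone decided which probes belonged, and no measured value entered that rule. The range of numbers itself was chosen with earlier results of these data known.

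Glomeruli, the filtering units of the kidney, were isolated by bead perfusion from untreated female mice, and their total RNA was measured on single-colour 3D-Gene miRNA arrays, 1 array for each of 9 samples. Controls were C57BL/6 mice aged 9 months (n = 3). Early GN samples were B6.MRLc1 mice at 9 months (n = 3), and late GN samples were B6.MRLc1 mice at 14 months (n = 3). B6.MRLc1 is a congenic strain that carries the end of chromosome 1 of the lupus-prone MRL/MpJ strain on a C57BL/6 background and develops autoimmune glomerulonephritis (GN). The samples used here held no C57BL/6 mice of 14 months, so stage, strain and age cannot be told apart in late GN. The strain field of the early GN samples reads C57BL/6 and the design text exchanges the ages of the GN groups. The groups therefore follow the sample titles and the disease state, which carry the same assignment. The samples were bulk RNA, in which fewer cells of a type and less RNA per cell cannot be told apart.

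miRNAs are short RNAs that guide Argonaute proteins to messenger RNAs. Pairing rests mainly on the seed, the bases near the 5′ end of the mature strand, and a bound messenger is translated less or decays sooner. miRNA numbers follow the order of registration, so neighbours in number were annotated at about the same time and need share neither sequence nor function. Many miRNAs of high number were found by deep sequencing, have no settled role, and include entries whose letters resemble those of other small RNAs. The glomerulus holds podocytes, endothelial cells and mesangial cells, in which the work on miRNAs has centred on a small number of older, conserved families.

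Mature sequences for 25 of the 40 members were found under the same name in RefSeq (build GRCm38.p6). Another 4 (miR-5124, miR-5129, miR-5132 and miR-5134) have RefSeq entries only under names with an added letter or arm, which the array's names do not settle, and are not printed. No RefSeq entry was matched for miR-5097, miR-5099, miR-5102, miR-5105, miR-5107, miR-5109, miR-5111, miR-5112, miR-5115, miR-5117 and miR-5127. The sequences below, each written 5′ to 3′ with the seed (bases 2 to 8) in capitals, are those of some members whose values are given in full further on, with miR-5106 added for its letters.
miR-5113: aCAGAGGAggagagagauccugu
miR-5114: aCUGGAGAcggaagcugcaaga
miR-5116: uUUGAUAGgaaccccgccuga
miR-5128: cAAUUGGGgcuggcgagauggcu
miR-5135: aGGUCUAGguggcaagggcguccu
miR-5126: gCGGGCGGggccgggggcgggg
miR-5100: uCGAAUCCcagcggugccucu
miR-5121: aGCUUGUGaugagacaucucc
miR-5106: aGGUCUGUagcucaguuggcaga
The 25 sequences were 19 to 25 bases long and held 25 different seeds, so no pair of them belongs to a seed family. Only 3 of them (miR-5106, miR-5110 and miR-5114) shared a seed with any other mature mouse miRNA of the table. A comparison of base composition with the rest of the array was void, since only 62.5% of the members and 27.3% of the other probes could be given a sequence by name. The sequences differed widely in composition: miR-5126 is made of G and C alone (100% GC, 77.3% G), and miR-5113 and miR-5116 hold 52.2% and 52.4%.

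By coordinates (GRCm38.p6), 23 of the 25 lay inside the span of another annotated gene. The table gives neither exons nor the strand of these genes. miR-5113 (chr15:80940049-80940071, plus strand) lies within Tnrc6b, whose product is a partner of Argonaute in silencing. miR-5114 (chr19:44303171-44303192, plus strand) lies within Scd2, a fatty acid desaturase gene, and miR-5116 (chrX:56587892-56587912, minus strand) within Mmgt1, a gene of the endoplasmic reticulum membrane complex. miR-5128 (chr2:37688212-37688234, minus strand) lies within Strbp, which encodes an RNA-binding protein. miR-5126 (chr1:84695890-84695911, plus strand) lies within Dner, the gene of a Notch-related receptor, and miR-5100 (chr11:60728698-60728718, plus strand) within Mief2, a gene of mitochondrial fission. miR-5121 (chr7:45126925-45126945, minus strand) falls in the ribosomal protein gene Rpl13a and also overlaps the small nucleolar RNA Snord33. miR-5135 (chr12:76533143-76533166, minus strand) overlaps no other gene of the table.

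Letters shared with other RNA classes were searched on the given strand, after the sequences had been read. UCGAAUCC, letters that occur in the T arm of transfer RNAs, stood in miR-5100 and in no other of 1679 mature mouse miRNAs (0.0596%). GUAGCUCAG, letters of the D arm of transfer RNAs, stood only in miR-5106. GAGAUGGCU, letters near the start of the mouse B2 repeat, stood in miR-5128 and in 3 members of the miR-3473 family (4 of 1679, 0.238%). Hairpins held these letters in 0.199%, 0.299% and 1.09% of 1005 entries. A match describes the letters and says nothing of the origin of the RNA on the array. The probes' own specificity for such RNAs was not tested.

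Detection was read first, because the authors' normalization left many probes without a value. A probe with a value is called listed here. The control arrays listed 28, 30 and 31 of the 40 members, the early GN arrays 23, 28 and 33, and the late GN arrays 33, 34 and 32. The late GN counts all lay above the control counts, and the early GN counts spanned the control range. As shares, the members were listed in 70% to 77.5% on control arrays, 57.5% to 82.5% in early GN and 80.0% to 85.0% in late GN. The other 1095 probes were listed in 51.0% to 51.8%, 37.0% to 64.4% and 60.4% to 65.9%. On each of the 9 arrays the members were thus listed more often than the other probes, and both shares were lowest on early GN array 1.

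**Figure D1:**
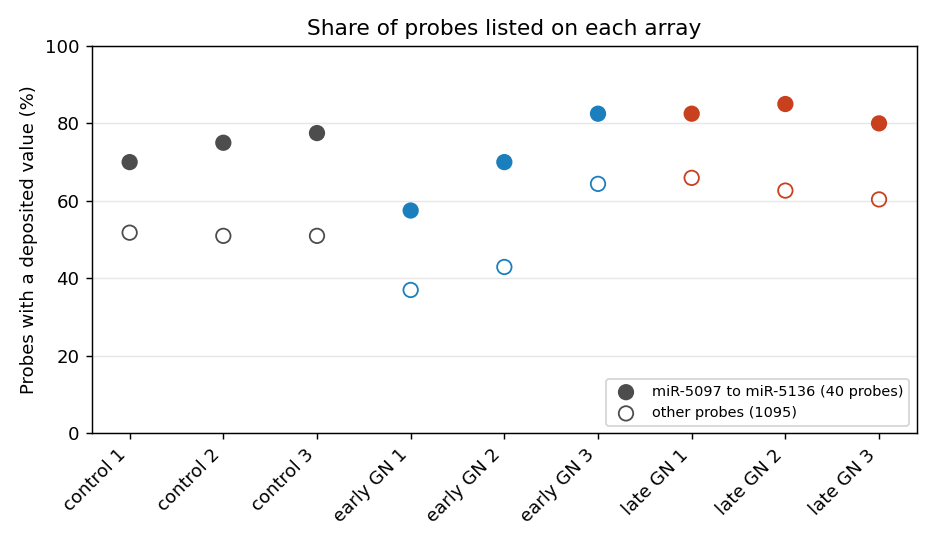
Percent of probes with a deposited value (vertical axis) on each of the 9 arrays (horizontal axis), for the 40 members (filled points) and the other 1095 probes (open points). The filled point lies above the open one on every array; among the early GN arrays the members' share runs from 57.5% to 82.5%, and in late GN from 80.0% to 85.0%.

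A total of 23 members (57.5%) were listed on all 9 arrays, against 36.2% of all probes. Other mouse-numbered series stood nearer to the whole array: 31.6% of the 117 probes of miR-3057 to miR-3113, 38.9% of the 72 probes of miR-1892 to miR-1971 and 33.3% of the 42 probes of miR-680 to miR-721. By a stricter reading, a scanner signal above the mean of the array's blank spots plus 2 SD, the counts of members were 21, 26 and 23 on control arrays, 22, 24 and 27 for early GN and 30, 30 and 28 for late GN. The late GN counts lay above the control counts by this measure too, as they did over all 1135 probes, with 453 to 476 on control arrays, 342 to 562 for early GN and 555 to 590 for late GN. These counts carry no test.

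The 17 other members were dim. miR-5101, miR-5108, miR-5120 and miR-5127 were listed on no array, and their spots stayed below the blank mean plus 2 SD on all 9 arrays. miR-5118 and miR-5123 were listed on late GN array 2 only, at 5.07 and 4.97, and miR-5136 on late GN arrays 2 and 3, at 14.9 and 5.58. None of these 3 passed the blank level on any array. miR-5103 was listed on 1 array of each group. miR-5104 and miR-5133 were listed on 1 control, 1 early GN and 3 late GN arrays, miR-5106 on 2, 1 and 3, and miR-5125 on 2, 2 and 3. miR-5098 went the other way, with values on 3 control arrays (10.5, 5.56 and 5.87), 1 early GN array (8.29) and 1 late GN array (12.2), and only 1 of its spots passed the blank level. miR-5124 was listed on 3 control arrays (13.3, 13.5 and 8.28), 2 early GN arrays (6.31 and 17.1) and 3 late GN arrays (16.1, 5.44 and 8.60), with overlapping ranges.

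miR-5134 and miR-5111 had values on all control and late GN arrays without entering the main fit. miR-5134 was listed at 12.8, 7.89 and 11.2 on the control arrays, 8.10 and 17.0 on early GN arrays 2 and 3, and 33.5, 26.6 and 23.6 in late GN. miR-5111 was listed at 8.26, 10.4 and 9.29 in controls, 9.57 and 74.2 on the same early GN arrays, and 27.1, 28.4 and 18.9 in late GN. For both, every late GN value lay above every control value, and the value of miR-5111 on early GN array 3 was the highest of the 9 arrays. miR-5129 was listed on control array 3 (6.07), early GN arrays 2 and 3 (5.97 and 8.94) and the late GN arrays (23.1, 15.1 and 10.1), and miR-5133 on control array 3 (6.92), early GN array 3 (11.7) and the late GN arrays (9.21, 13.1 and 7.37). The spots of miR-5134 and miR-5129 passed the blank level on the 3 late GN arrays and on none of the other 6. In a fit of the 486 probes listed on at least 2 arrays of each group, in which unlisted values were left out, late GN exceeded control by 1.41 (log2) for miR-5134 (limma adjusted p = 0.0389) and by 1.39 for miR-5111 (adjusted p = 0.0412). That fit called 4 of its 27 members and 21 of all 486 probes in this comparison. From the normexp and quantile normalized scanner signal of all probes, the change of miR-5134 was 0.21 (adjusted p = 0.0253). That of miR-5111 was 0.09 (adjusted p = 0.728), so its call was lost.

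**Figure D2:**
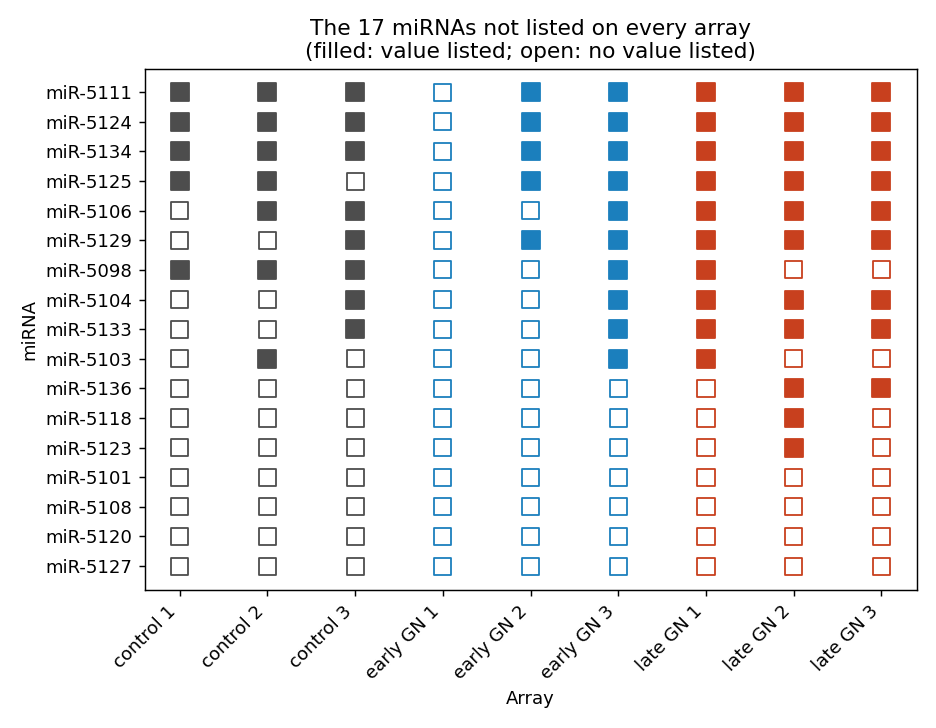
The 17 members without a value on every array (rows) by array (columns); a filled square is a listed value and an open square is none. Early GN array 1 lists none of the 17, and the late GN columns hold the most filled squares of miR-5104, miR-5133 and miR-5129.

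The 23 members with values on all 9 arrays were compared on log2 of the deposited intensity. The authors' normalization set the median of each array's own listed values to 25, whatever the number of probes listed. Early GN array 1 listed 428 probes and early GN array 3 listed 738, so that median was taken over different sets of probes. Over the 411 miRNAs listed on all arrays, the median difference from the control mean (log2) was -1.03, -0.61 and 0.51 for early GN 1, 2 and 3, and 0.44, 0.42 and 0.33 for the late GN arrays. For the 23 members it was -0.62, 0.12 and 0.74, and 0.81, 1.05 and 0.62. The members thus lay above the median of the 411 on each of the 6 GN arrays, and the 3 early GN arrays differed from each other far more than the 3 late GN arrays. Early GN array 1 placed 20 of the 23 below all 3 control values, against 91.7% of the 411. Array 2 placed 11 above them and 6 below, against 17.3% and 62.5%, and array 3 placed 22 above them, against 73.0%. The late GN arrays placed 20, 20 and 19 above all 3 control values, against 58.2%, 54.3% and 53.3% of the 411.

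Scale-free measures are given beside these. The members' share of the summed listed value of an array does not depend on the array's factor. It was 10.9%, 9.74% and 10.8% on control arrays, 14.7%, 17.6% and 13.3% for early GN, and 16.1%, 17.3% and 15.0% for late GN. Every GN array lay above every control array, and the stages overlapped. miR-5126 alone gave 4.18% to 4.97% of the sum in controls, 5.71% to 8.13% in early GN and 7.79% to 9.35% in late GN. Without it, the share of the rest was 5.80% to 6.30%, 8.02% to 10.3% and 7.83% to 8.81%, again with no overlap between control and either stage. The array-wide sum also moves with the other probes: the 8 glomerular marker miRNAs (miR-26a, miR-30a, miR-30c and miR-30d for podocytes, miR-126-3p and miR-126-5p for endothelium, miR-143 and miR-145 for mesangium), all listed on every array, summed to 68923 to 74793 in controls, 29739 to 64921 in early GN and 44565 to 51980.4 in late GN. Their part in the shares was not tested.

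In early GN, no member changed at an adjusted p under 0.05 (0 of 23). Across all 411, 1 miRNA was called higher (0.243%) and none lower (limma on log2 values, 2-sided, Benjamini-Hochberg over the 411). The fit gave every miRNA the same SE of 0.44 (log2), which comes from the spread pooled over the 411 and not from its own. The median change of the members was 0.07, against -0.38 for all 411, and 15 of the 23 had a change above 0, against 23.1% of all. Other mouse-numbered series also had medians above that of the 411. These were -0.10 for miR-3057 to miR-3113, -0.08 for miR-1892 to miR-1971 and 0.01 for miR-680 to miR-721. For mouse miRNAs numbered below miR-680 the median was -0.62. At an unadjusted p under 0.05, 2 members were higher (2.19% of all) and none lower (13.6% of all). These were miR-5102 and miR-5109, with changes of 0.89 and 0.88 and adjusted p = 0.305 for each. The methods' t-test after the same adjustment and Dunnett's test also called 0 members. With 3 arrays a group, the exact permutation test of a single miRNA cannot give a p below 0.1. Slides were told apart by the barcode in the scanner output. A single slide held more than 1 group, with control 3 and early GN 1 on it. Within this slide the early GN value was lower for 21 of the 23 members (median difference -0.69) and for 392 of all 411 (median -1.01). miR-5109 (0.16) and miR-5114 (0.35) were the 2 members with a positive difference there. These differences include the factors of the arrays, 1.97 for control 3 and 1.09 for early GN 1. The part of the factors was not tested.

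miR-5109 read 2822, 2882 and 2905 on the control arrays, 3249, 5959 and 7575 for early GN and 5953, 7224 and 4624 for late GN. All 3 early GN values lay above all 3 control values, which 1.95% of the 411 showed in that direction. No other member did, and none lay below all control values in all 3 early GN samples (6.33% of the 411). Within the order of the 411 values on each array, miR-5109 stood at places 32, 36 and 34 in controls, 19, 10 and 18 for early GN and 15, 12 and 22 for late GN, where place 1 is the highest value. This order is unaffected by the factor of an array and was examined after the other values had been seen. Read by place, 11 of the 23 members stood higher in early GN than in control with no overlap of the groups, against 18.0% of the 411, and none stood lower, against 22.4%. The 11 were miR-5102, miR-5105, miR-5109, miR-5112, miR-5113, miR-5114, miR-5115, miR-5119, miR-5126, miR-5130 and miR-5132.

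Setting each array to a common median over the 411 moved the early GN changes of all miRNAs up by 0.38 (log2). The members called then numbered 5, all higher, against 6.81% of the 411 higher and 3.89% lower. They were miR-5102 (1.27, adjusted p = 0.00859), miR-5109 (1.26, adjusted p = 0.00949), miR-5114 (0.79, adjusted p = 0.0377), miR-5105 (0.71, adjusted p = 0.0483) and miR-5112 (0.67, adjusted p = 0.0317). Left without early GN array 3, the deposited values gave 4 members lower and none higher, out of 237 calls in all.

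In late GN, 2 of the 23 members were higher than in control and none lower, against 3.89% of the 411 higher and 0.243% lower (4.14% in either direction). These were miR-5102 and miR-5113. The median change was 0.78 for the members and 0.45 for all 411. A change above 0 was found for 21 of the 23, against 60.3% of all. The groups did not overlap for 19 members in the upward direction, against 49.1% of all, and for 1 in the downward direction, against 21.7%. At an unadjusted p under 0.05, 10 members were higher (27.5% of all) and none lower (2.92% of all). Other mouse-numbered series had medians of a like size: 0.85 for the 37 of miR-3057 to miR-3113 in the fit, 0.96 for the 28 of miR-1892 to miR-1971 and 0.98 for the 14 of miR-680 to miR-721. The 242 mouse miRNAs numbered below miR-680 had a median of -0.14. Late GN lay above control with no overlap for 28 of the 37, 25 of the 28, 10 of the 14 and 77 of the 242. The early and late comparisons share the 3 control arrays.

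miR-5102 read 19.8, 14.5 and 21.4 on the control arrays, 20.5, 33.3 and 56.8 for early GN and 64.1, 64.8 and 53.2 for late GN. The late GN values all lay above the control values, and early GN array 3 reached the late GN range. Late GN exceeded control 3.30-fold (log2 1.72, SE 0.44, adjusted p = 0.016), the largest increase among the 411 on the deposited scale. It was 1.41 with a common median, 1.15 with a pseudocount of 16 and 0.30 with normexp and quantile normalization of the scanner signal. Its place in the order of the array was 331, 366.5 and 315 in controls, 231, 211 and 231 for early GN and 212, 209 and 223 for late GN. The probe was dim. In the scanner output its spot median was 46.0, 37.0 and 48.0 on the control arrays, 54.0, 62.0 and 55.0 for early GN and 63.0, 72.0 and 72.0 for late GN, where blank spots averaged 30.5 to 36.8. All 9 spots passed the blank mean plus 2 SD. Before scaling, the 3 early GN spots were all above the 3 control spots and below the 3 late GN spots. The factors of the 3 early GN arrays were 1.09, 1.24 and 2.34. Scanner gain was 35 on the control arrays, 36, 35 and 35 for early GN and 35, 36 and 37 for late GN, and its part was not tested.

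miR-5113 read 11.1, 14.8 and 16.5 on the control arrays, 9.06, 13.1 and 41.8 for early GN and 41.2, 42.9 and 32.0 for late GN. Its late GN values lay above the control values, with early GN array 3 again in their range, early GN array 2 in that of the controls and early GN array 1 below it. The late GN change was 2.76-fold (log2 1.46, SE 0.44, adjusted p = 0.0275). The spot of miR-5113 read 38.0, 37.0 and 43.0 in controls, 42.0, 49.0 and 51.0 for early GN and 51.0, 58.0 and 62.0 for late GN, and it passed the blank level on 2 of the 3 control arrays and on all GN arrays. A value this near the blanks rests on a difference of 4.33 to 9.94 scanner units from the blank mean in controls and of 20.5 to 25.6 in late GN. Both calls were lost when any 1 control array, late GN array 1 or late GN array 2 was left out. Without late GN array 3 miR-5102 kept its call (adjusted p = 0.0410) and miR-5113 lost it (adjusted p = 0.0779). With slide as a random block the adjusted p values were 0.0566 and 0.0758. No late GN array shared a slide with a control array, so slide and group cannot be told apart in this comparison. The block does not separate them.

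**Figure D3:**
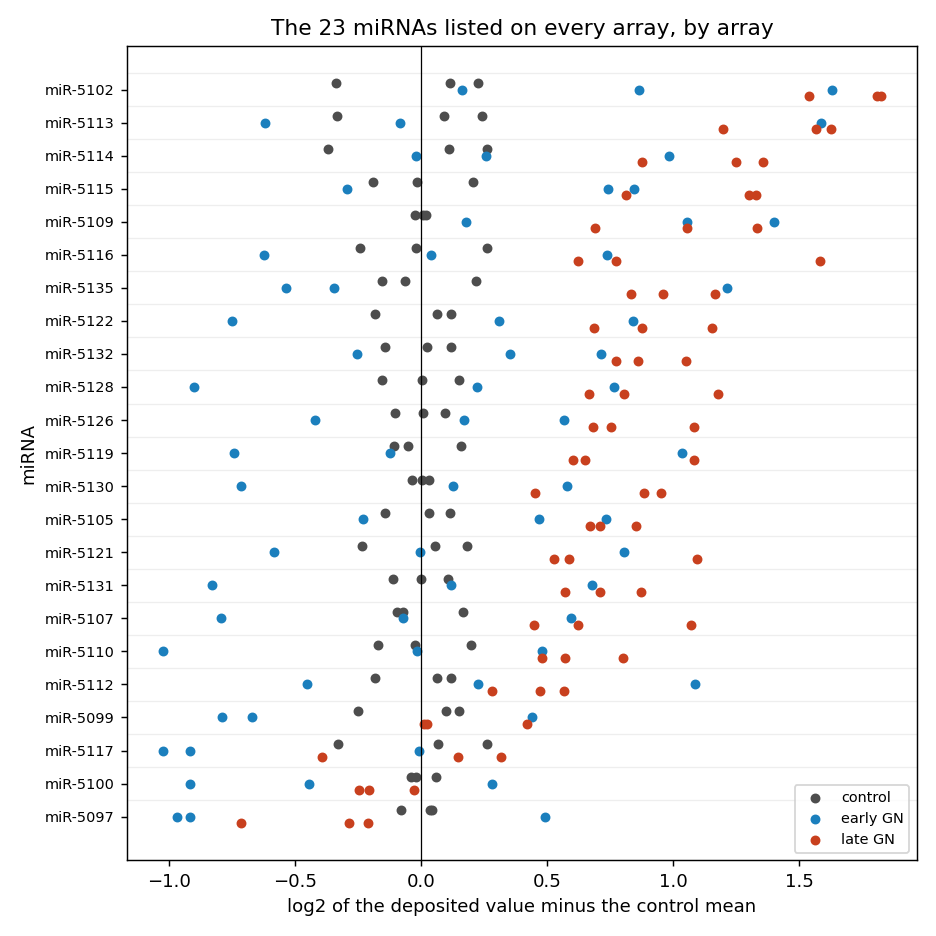
log2 of the deposited value minus the mean of the control arrays (horizontal axis) for the 23 members listed on all 9 arrays (rows, in order of the late GN change); each point is 1 array. Late GN points lie to the right of the control points in 19 rows, and the 3 early GN points of a row are spread more widely than the late GN points in most rows.

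The next 8 members by late GN change passed only the unadjusted threshold. miR-5114 read 31.9, 35.5 and 22.9 on the control arrays, 29.2, 35.4 and 58.5 for early GN and 70.4, 75.7 and 54.3 for late GN (log2 change 1.16, adjusted p = 0.105). miR-5115 read 385, 292 and 330.3 on the control arrays, 272, 557 and 599 for early GN and 822, 836 and 585 for late GN (1.15, adjusted p = 0.105). In both, early GN array 3 lay above the controls and within the late GN range. miR-5109, with the values given above, had a late GN change of 1.02 (adjusted p = 0.124), close to its early GN change of 0.88. miR-5116 read 13.4, 16.2 and 11.4 on the control arrays, 8.80, 13.9 and 22.5 for early GN and 40.5, 23.2 and 20.8 for late GN (0.99, adjusted p = 0.129), with late GN array 1 well above the other 2. miR-5135 read 12.3, 14.9 and 11.5 on the control arrays, 8.86, 10.1 and 29.8 for early GN and 28.8, 22.9 and 25 for late GN (0.99, adjusted p = 0.129). miR-5116 passed the blank level on 7 of 9 arrays and miR-5135 on 8, so both were at the limit of detection in some samples.

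The other 3 passed the blank level on all arrays, as did miR-5109, miR-5114 and miR-5115. miR-5122 read 63.4, 51.5 and 61.1 on the control arrays, 34.8, 72.3 and 105 for early GN and 107, 129.9 and 94.1 for late GN (0.90, adjusted p = 0.149). miR-5132 read 214, 190.3 and 228 on the control arrays, 176, 268 and 344 for early GN and 381, 436 and 359 for late GN (0.90, adjusted p = 0.153). miR-5128 read 2799, 3122 and 3453 on the control arrays, 1667, 3635 and 5295 for early GN and 5439.8, 7036 and 4937 for late GN (0.88, adjusted p = 0.16). In each of these, the 3 late GN values lay above the 3 control values while the early GN values ran from below the controls to near or within the late GN range.

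A further 9 members had late GN values above all control values at an unadjusted p above 0.05, with log2 changes of 0.44 to 0.84. miR-5126 read 19179, 16752 and 18093 on the control arrays, 13436, 20239.7 and 26616 for early GN and 30280.4, 38107 and 28799 for late GN. miR-5105 read 1972, 1860.3 and 1649.9 on the control arrays, 1553, 2522 and 3026 for early GN and 2979, 3294 and 2898 for late GN. miR-5130 read 737, 773 and 759 on the control arrays, 461, 825 and 1128 for early GN and 1394, 1463 and 1033 for late GN. In all 3 of these, early GN array 1 was the lowest of the 9 arrays, and late GN array 2 was the highest. miR-5107 read 211, 207 and 248 on the control arrays, 128, 211 and 334 for early GN and 341, 465 and 302 for late GN. miR-5112 read 122, 98.6 and 117 on the control arrays, 81.8, 131 and 238 for early GN and 155, 166 and 136 for late GN. miR-5121 read 108, 118 and 88.1 on the control arrays, 69.3, 103 and 181 for early GN and 149.6, 221 and 156 for late GN. miR-5112 was highest on early GN array 3 and not in late GN. miR-5119 read 48.8, 40.6 and 42.2 on the control arrays, 26.1, 40.2 and 89.5 for early GN and 68.5, 92.5 and 66.3 for late GN. miR-5110 read 65.0, 55.7 and 50.4 on the control arrays, 27.9, 56.1 and 79.0 for early GN and 84.2, 98.7 and 79.1 for late GN. miR-5131 read 16.1, 17.4 and 14.9 on the control arrays, 9.07, 17.5 and 25.8 for early GN and 29.5, 26.3 and 24.0 for late GN. These 3 showed the same order of the early GN arrays, with array 1 lowest and array 3 highest. The last of them was dim, with spot medians of 40 to 59 on all arrays.

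The remaining 4 members did not share the upward shift. miR-5097 read 1615, 1491 and 1626 on the control arrays, 807, 835 and 2215 for early GN and 1294, 962 and 1362 for late GN. All 3 late GN values of miR-5097 lay below the controls (log2 -0.40, adjusted p = 0.512), and early GN array 3 was the highest of the 9. miR-5100 read 11023, 10273 and 10428 on the control arrays, 5607, 7779 and 12840.1 for early GN and 10362, 8911 and 9168 for late GN (late GN change -0.16, adjusted p = 0.802). miR-5099 read 451, 574 and 596 on the control arrays, 310.2, 338 and 728 for early GN and 541, 717 and 546 for late GN (0.15). miR-5117 read 31.5, 41.4 and 47.4 on the control arrays, 19.5, 21.0 and 39.3 for early GN and 49.2, 30.1 and 43.7 for late GN (0.02). The ranges of the late GN and control values overlapped for the last 3. In the order of the 411, miR-5100 stood at places 7 to 11 on every array and miR-5099 at places 68 to 80. miR-5097 stood at 48, 52 and 49 in controls, 46, 52 and 45 for early GN and 53, 57 and 53 for late GN.

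**Figure D4:**
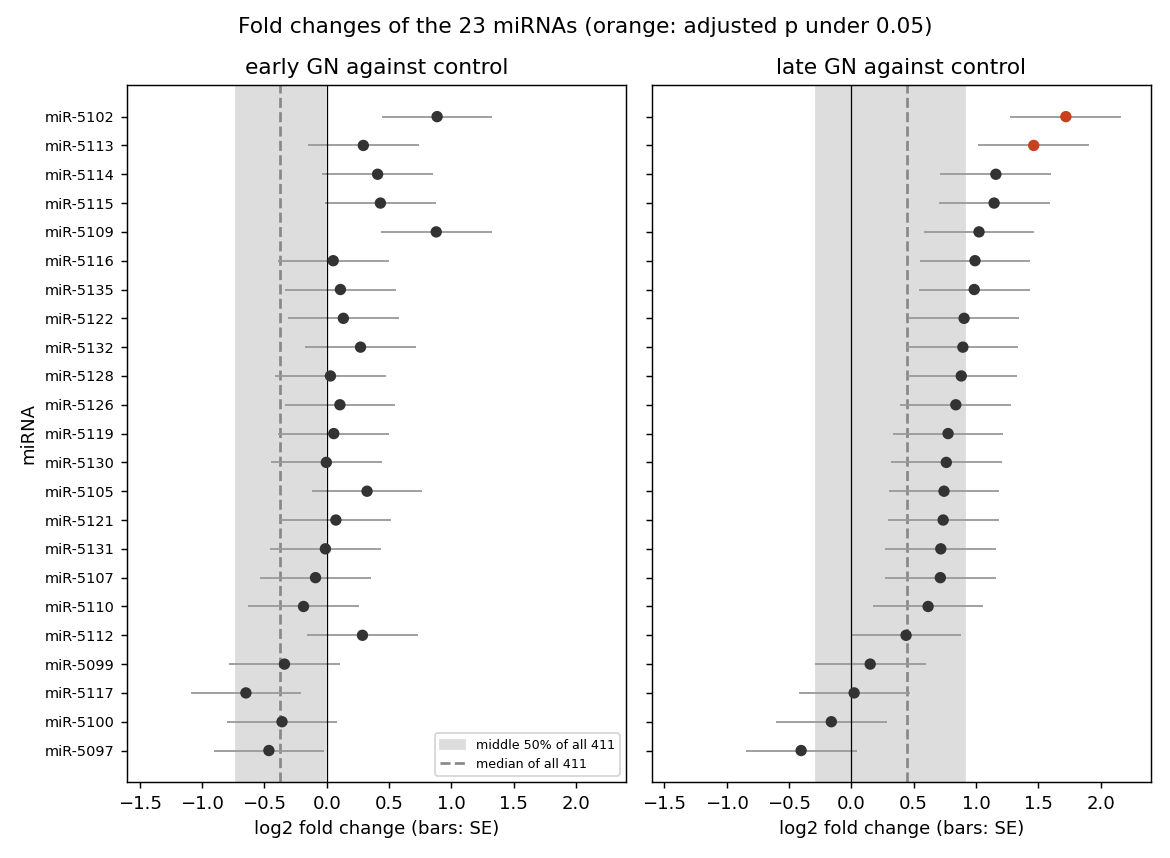
log2 fold change with its SE of 0.44 (horizontal axis) of the 23 members (rows, in order of the late GN change) in early GN (left) and late GN (right) against control; the shaded band holds the middle 50% of all 411 miRNAs and the dashed line is their median, -0.38 on the left and 0.45 on the right. Only miR-5102 and miR-5113 in late GN are past the threshold, and most points lie to the right of the dashed line in both panels.

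With each array set to a common median, the late GN changes of all miRNAs moved down by 0.31 (log2), and 12 members were called higher and 2 lower, against 32.1% of the 411 higher and 29.9% lower. The split of calls over the 411 moved from 16 higher and 1 lower to 132 higher and 123 lower. The 12 were miR-5102, miR-5113, miR-5109, miR-5114, miR-5115, miR-5116, miR-5119, miR-5122, miR-5126, miR-5128, miR-5132 and miR-5135. The 2 called lower were miR-5097 (-0.72, adjusted p = 0.00895) and miR-5100 (-0.47, adjusted p = 0.0276). By place within the array, which no single factor for an array alters, 13 of the 23 stood higher in late GN than in control with no overlap (31.9% of the 411) and 1, miR-5097, stood lower (33.8% of the 411). Marker miRNAs of other cells also differed between groups: the 4 leukocyte markers (miR-142-3p, miR-150, miR-155 and miR-223), 3 of them listed on all arrays, summed to 188 to 235 in controls, 85.3 to 287 in early GN and 325 to 461 in late GN. The 3 tubule markers (miR-192, miR-194 and miR-204), all listed on every array, summed to 786 to 1142, 367 to 1066 and 1065 to 1274. The 2 probes found for the red blood cell markers (miR-144, miR-451 and miR-486), 1 of them listed on all arrays, summed to 840.1 to 961, 206 to 797 and 430.4 to 689. Their part in the changes of the members was not tested.

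Late GN was also compared with early GN. No member changed at an adjusted p under 0.05 (0 of 23 by limma and 0 by the methods' t-test), against 1.46% of the 411 higher and 0.243% lower (1.7% in either direction). All 23 members had a change above 0, as did 97.1% of the 411, and the median change was 0.73 for the members and 0.70 for all. It was 0.89 for miR-3057 to miR-3113, 1.00 for miR-1892 to miR-1971 and 0.83 for miR-680 to miR-721. A common median moved all changes of this comparison down by 0.70 (log2), which left the members' median at 0.03 and 9 of the 23 below 0. Of all 411, 207 were then below 0, with a median of -0.0016. At an unadjusted p under 0.05, 3 members were higher (30.2% of all): miR-5113 (1.17, adjusted p = 0.0903), miR-5116 (0.94, adjusted p = 0.144) and miR-5135 (0.88, adjusted p = 0.16). The stages did not overlap for 3 members, miR-5110, miR-5126 and miR-5132 (21.4% of all). By place within the array, miR-5128 stood higher in late GN than in early GN with no overlap (9.98% of all), and miR-5097 and miR-5112 stood lower (7.79% of all). Without early GN array 3, 22 of the 23 members were called higher in late GN, out of 376 calls in all.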

How the data were processed

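The arrays were single-colour 3D-Gene mouse miRNA chips. The authors read them with the 3D-Gene Scanner and Extraction software (versions not given in the sources used here) and deposited fluorescence intensity on a linear scale after global normalization. Checked against the scanner intensity that the authors also deposited, a listed value is close to the spot median minus the blank mean, times 1 factor for each array. The fit is approximate, and the rule for leaving a probe unlisted is not stated. The deposited series table held the same intensity values for all 1123 identifiers in it. The methods count n by mouse, and the number of arrays limits the precision.

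The main test was limma (version 3.58.1, R 4.3.3) on log2 deposited intensity. It took the 411 miRNAs with a value on every array, and the 3 groups entered 1 fit with 6 residual degrees of freedom for each miRNA. The prior degrees of freedom were infinite, so all miRNAs shared 1 residual SD of 0.544. The SE and p values thus rest on this pooled spread and not on the spread of the single miRNA. Differences in scale between the arrays of a group enter it too. Tests were 2-sided, with Benjamini-Hochberg adjustment over the 411 and a threshold of 0.05. Every member is named, with full statistics for those with an unadjusted p under 0.05. The members, marker lists and comparison series were chosen with earlier results of these data known. Alternatives were other scalings (common median, 75th percentiles, spike controls, normexp with offset 50 and quantile normalization), a pseudocount of 16, other filters, blocks and tests (Dunnett's test with multcomp 1.4.28), and each array left out in turn. Tables came from pandas 2.3.3 and numpy 2.4.6 under Python 3.11.15, and plots from matplotlib 3.10.9. RefSeq entries on chromosome 18 were left out of the members' sequences and coordinates.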

Additional observations from a re-analysis of the deposited data

How the results depend on the processing

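Counts are at an adjusted p under 0.05, for the members and then for all miRNAs. In early GN against control (0 and 1), they were 5 and 44 with a common median, 7 and 57 with normexp and quantile normalization, 2 and 15 at the 75th percentile of listed probes, 4 and 22 at that of all probes, 3 and 24 over all probes of the scanner signal, 0 and 15 with a pseudocount of 16, and 0 and 0 with spike controls, slide as a random block, only the groups compared, the methods' t-test or Dunnett's test. Leaving out 1 array gave 0 to 4 and 0 to 237, with the highest counts, all of the members lower, without early GN array 3.

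In late GN against control (2 and 17), they were 14 and 255 with a common median, 13 and 152 with normexp, 13 and 180 at the 75th percentile of listed probes, 5 and 159 at that of all probes, 11 and 129 over all probes, 3 and 32 with spike controls, 4 and 42 with the pseudocount, 4 and 21 over the probes listed on at least 2 arrays of each group, 19 and 272 with only the groups compared, 18 and 229 with the methods' t-test, and 0 and 0 with slide as a block or Dunnett's test. Leaving out 1 array gave 0 to 17 and 0 to 228: 0 members without any 1 control array, late GN array 1 or 2, 1 without late GN array 3, 2 without early GN array 2, 11 without early GN array 1 and 17 without early GN array 3. In late GN against early GN (0 and 7), the members' count was 0 under every alternative except without early GN array 3 (22). All miRNAs gave 1 with a common median or spike controls, 4 with slide as a block, 0 with the normexp, 75th percentile, all-probe, groups-compared and t-test alternatives, and 0 to 376 with 1 array left out.

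The late GN change of miR-5102 stayed above 0 and passed in 16 of 23 alternatives (adjusted p 0.000158 to 0.270), and that of miR-5113 in 13 of 23 (0.000378 to 0.369). With normexp, whose offset of 50 compresses dim probes, the changes were 0.30 and 0.21. Among 342 alternatives of 15 member changes, 3 turned the direction, all of miR-5135 in late GN against early GN. They were -0.053 with normexp, -0.053 over all probes and -0.29 at the 75th percentile of all probes. The cause was not tested. The normexp and all-probe alternatives use the same normexp and quantile normalized signal, so their fold changes are the same by construction. These 15 had an unadjusted p under 0.05, and several alternatives, such as the other tests, cannot alter a fold change, so few turns were possible. Over all 23 members a common median turned 6 changes in early GN, 2 in late GN and 9 in late GN against early GN. Of the 411 it turned 115, 30 and 195.

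Replicate numbers did not pair the samples: same-numbered arrays deviated with r of -0.22 to 0.34, and 4 of 9 pairs were over 0.1. With the replicate block the members called were 0, 2 and 0, and all miRNAs 1, 16 and 5. By place within the array, an alternative added after seeing the data, the members higher with no overlap numbered 11, 13 and 1, against 1, 19 and 3 by value. Dim spots limit miR-5102 and miR-5113, which lie near the blanks.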
